A study of Mus musculus with 4 samples.

Results

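Caecal gene expression was compared between apoE knockout (KO) mice given prebiotics and apoE KO mice that were not. The comparison used 2 of the 4 arrays of the series, chosen by their titles. All mice in these groups were C57Bl/6, lacked apolipoprotein E and were 21 weeks of age. Both groups ate a Research Diets feed poor in n-3 polyunsaturated fatty acids. The treated group received 250 mg of prebiotic per mouse per day (Orafti®P95) over its last 15 days, and the control group received none. Tissue RNA of 6 mice per group, selected on RNA quality, was pooled, and 100 ng was labelled for 1 Affymetrix array. Each side is therefore 1 value per gene without a replicate, the spread between mice cannot be seen, and no difference below has a test or an error.

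Prebiotics are carbohydrates that the host does not digest and that gut bacteria ferment, largely in the caecum and colon, to short-chain fatty acids. The caecal wall absorbs those acids, salt and water, secretes mucus and antimicrobial proteins, and holds lymphoid tissue. The small intestine, which lies upstream, carries the brush border enzymes that finish digestion, the ileal uptake of bile acids and, at its crypt bases, the Paneth cells that release alpha-defensins and lysozyme. ApoE is a ligand for the clearance of lipoprotein remnants, and mice without it accumulate cholesterol in the blood.

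The deposited values are log2 intensities summarised by RMA, so a log2 difference of 1 is 2-fold. Of 22180 genes with a probe set of their own, 12216 reached the median of such probe sets on at least 1 of the 2 KO arrays and were compared. A gene that reached it on only 1 array was all but bound to be higher there. Counts of direction among genes of low value are therefore partly set by this filter. A value less than 1 log2 unit above the median of all probe sets of its array (below 3.92 without and 3.93 with prebiotics) is called near background here. By that measure 42.8% of the compared genes were near background without prebiotics and 42.1% with them, and fold differences from such values are poorly determined. Apoe itself lay near background on both KO arrays, at 2.83 without and 3.13 with prebiotics. It lay at 3.90 to 4.09 on the wild-type (WT) arrays, above either KO value. The lower WT value was near background too, since the limit was 3.93 on either WT array. Markers of caecal epithelium lay far above background on both KO arrays: Car1, a carbonic anhydrase of the large bowel, at 12.36 and 12.52, Lypd8 at 12.26 and 12.44, and the mucin Muc2 at 12.18 and 11.96, each without and then with prebiotics. Muscle of the gut wall was in the samples too, with Acta2 at 10.89 and 10.79 and Myh11 at 10.10 and 9.79. For the 2 WT arrays the description names the opposite diet to the title, so the WT values are given only as a span from the lower to the higher array. Where a gene is given a pair of values below, the first is without and the second with prebiotics.

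The KO arrays were similar across most genes. Pearson's r between them, across genes, was 0.984, and 8545 genes (69.9%) differed by at most 0.25 on the log2 scale. The median difference, with minus without prebiotics, was 0.04 and its SD across genes was 0.29, against 0.26 between the WT arrays. The middle of the distribution was narrow, with the 1st and 99th percentiles at -0.60 and 0.79, whereas the extremes ran from -1.71 to 5.10.

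**Figure D1:**
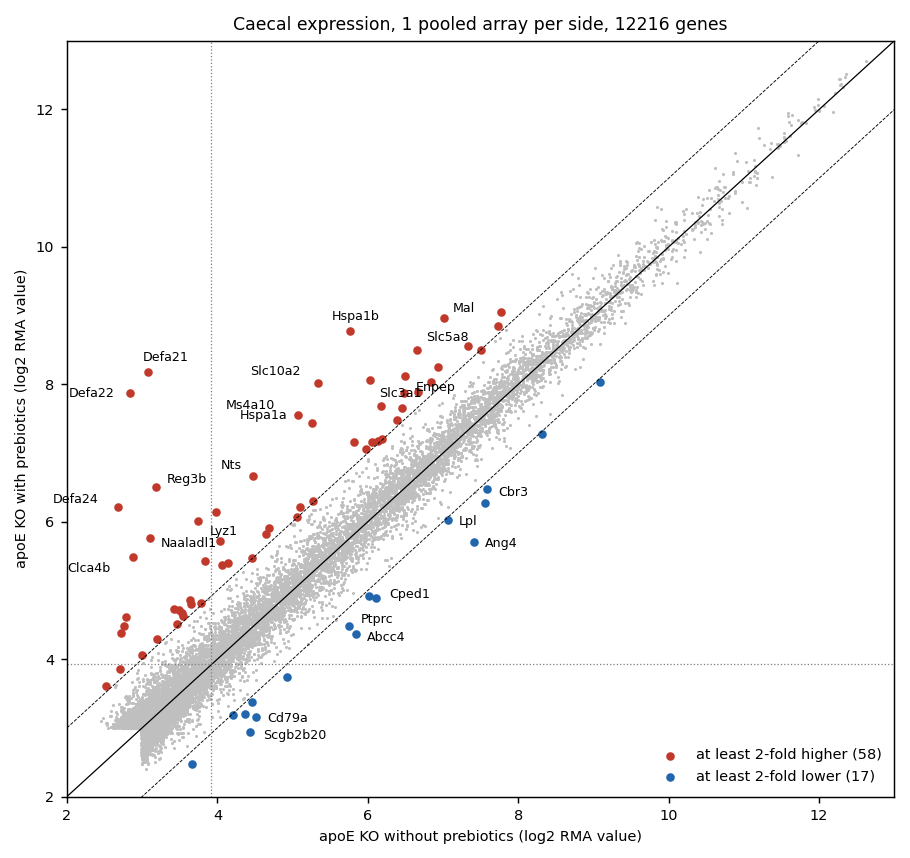
Log2 RMA value of each of 12216 genes on the apoE KO array without prebiotics (horizontal axis) and with prebiotics (vertical axis); each point is a gene, the solid line marks equal values, dashed lines a 2-fold difference and dotted lines the near-background limits of 3.92 and 3.93. The 58 red genes and 17 blue genes lie at or beyond 2-fold, and many of the red ones lie left of the dotted vertical line.

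On the prebiotic array 58 genes (0.475% of those compared) were at least 2-fold higher and 17 (0.139%) at least 2-fold lower. At 1.5-fold the counts were 321 higher (2.63%) and 141 lower (1.15%), and 56.0% of genes were higher by any amount. Each count of higher list members below is to be read beside that 56.0%, and in several lists the share was close to it. The split at 1.5-fold depended on the scaling between arrays: it was 255 higher to 174 lower after cyclic loess and 267 to 174 after centring the differences on their median. Of the 58 higher genes, 35 were above background on both arrays, 21 were near background without prebiotics and 2 on both. Among the 17 lower genes 10 were above background on both arrays. The cut at 2-fold is sharp only by definition: Tmem170 (1.001), Cobl (1.006) and Hsd17b13 (1.02) lay just inside it and Plekhg6 (0.9995), Ptp4a1 (0.99) and Dusp1 (0.99) just outside. On the lower side Fgf7 and Lpl lay just inside, at -1.02 and -1.03, and Lilrb4a just outside, at -0.9986.

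The higher genes were also set against the span of the WT arrays. In 39 of the 58 the prebiotic array lay farther outside the WT span than the array without, in 18 the array without prebiotics lay farther outside, and in 1 neither did. The prebiotic array exceeded both WT arrays in 51 of the 58, against 40.4% of all genes compared. The array without prebiotics was below both WT arrays in 36 of the 58, against 31.0% of all genes. For 49 of the 58 and 13 of the 17 the gap between the KO arrays was wider than that between the WT arrays, as it was for 52.3% of all genes. These counts use the KO values that chose the genes and are a description.

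Genes of the absorptive epithelium of the small intestine were higher on the prebiotic array as a group. All 28 compared members of a list of small intestinal enterocyte markers were higher, with a median log2 difference of 0.64 against 0.04 over all genes. Of them 15 were at least 1.5-fold higher and 9 at least 2-fold, and 0 were 1.5-fold lower. The 14 compared members of a list of brush border peptidases and disaccharidases were also all higher, with a median of 0.58, and 6 of them were at least 2-fold higher. After cyclic loess 13 of these 14 remained above 0 and all 28 of the enterocyte markers did. Fabp6, Sis, Mttp, Slc15a1, Slc6a19, Slc7a9, Amn, Xpnpep2 and Treh reached the filter only with prebiotics, so they could only count as higher. Sis, Xpnpep2 and Treh belong to the brush border list too. Of the enterocyte markers left out by the filter, Apoc3 (-0.04) and Lct (-0.05) were lower and Slc2a2, Gata4, Cyp3a11 and Cyp3a25 higher. The lists share 10 genes, and together they hold 32, of which 16 were 1.5-fold higher. In 26 of the 28 the prebiotic array lay above both WT arrays, against 40.4% of all genes. In 13 the array without prebiotics lay below both, against 31.0% of all genes.

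Bile acid uptake led this group. Slc10a2, the sodium-dependent transporter that takes up bile acids across the apical membrane in the ileum, had 5.34 without and 8.03 with prebiotics, both above background. The WT arrays spanned 5.21 to 7.84, so the WT pair differed by nearly as much as the KO pair. The upstream region of Slc10a2 is shown because it is the gene with the largest difference in this list, on GRCm38.p6, chr8:5105388-5105537, minus strand, from 250 to 101 bases before the RefSeq start. Capitals mark matches to TTAATNATT, a core of the binding site of the epithelial factor HNF1, on either strand.
Slc10a2: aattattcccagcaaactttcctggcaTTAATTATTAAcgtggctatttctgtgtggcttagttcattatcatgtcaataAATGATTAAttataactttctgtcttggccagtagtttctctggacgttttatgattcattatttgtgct
It holds 3 matches, of which 2 overlap, starting 223, 221 and 170 bases before the start. The search covered the 250 bases before each start. The same letters occur there in 1.40% of 32851 windows around gene starts and for 0.959% of the 9596 compared genes with a window. A match is a description of the sequence and not a measured site.

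Enzymes of the brush border followed. Naaladl1, a peptidase, went from 3.10, near background, to 5.77, and the WT arrays lay between, at 4.23 to 4.54. Sucrase-isomaltase (Sis), which splits sucrose and starch ends, had 2.79 and 4.61 against 3.03 to 3.23 in WT. Aminopeptidase A (Enpep) had 6.49 and 8.12, aminopeptidase N (Anpep) 5.81 and 7.15, the meprin beta subunit (Mep1b) 6.93 and 8.25, and intestinal alkaline phosphatase (Alpi) 7.34 and 8.56. These 4 were above background on both arrays, with differences of 1.63, 1.34, 1.32 and 1.22. Other members differed little. Maltase-glucoamylase (Mgam) had 9.44 and 9.59, dipeptidyl peptidase 4 (Dpp4) 5.88 and 6.03, and the fatty acid binding protein Fabp2, far above background, 11.53 and 11.66.

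The depth of the group is uneven. In the enterocyte list 12 of the 28 members were near background on at least 1 array and 8 on both, among them Fabp6, the ileal bile acid binding protein, at 2.66 and 3.62, the peptide transporter Slc15a1 at 2.77 and 3.22, and the amino acid transporter Slc6a19 at 2.74 and 3.13. Over the 16 members above background on both arrays the median was again 0.64. Markers that reached the filter on neither KO array were Apoc3, Lct, Slc2a2, Gata4, Cyp3a11 and Cyp3a25, so 28 of the 34 on the array are described. Summed on the linear scale, the list had a log2 level of 12.69 without and 13.12 with prebiotics. In bulk tissue more cells of a type and more RNA per cell cannot be told apart, and the same holds for every cell list below. Whether the pools differed in how much tissue next to the ileum they held was not tested. Regional transcription factors, which mark position along the gut, had 9 of 17 members higher, or 7 of 17 after cyclic loess, and a median of 0.02. The largest differences were negative, with Meis1 at 4.88 and 4.23, Hoxd10 at 3.92 and 3.42, Meis2 at 4.33 and 3.86 and Hoxc10 at 3.31 and 3.02, and all but Meis1 were near background on at least 1 array. Gata6 had 6.30 and 6.58 and Cdx2 7.16 and 7.42.

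**Figure D2:**
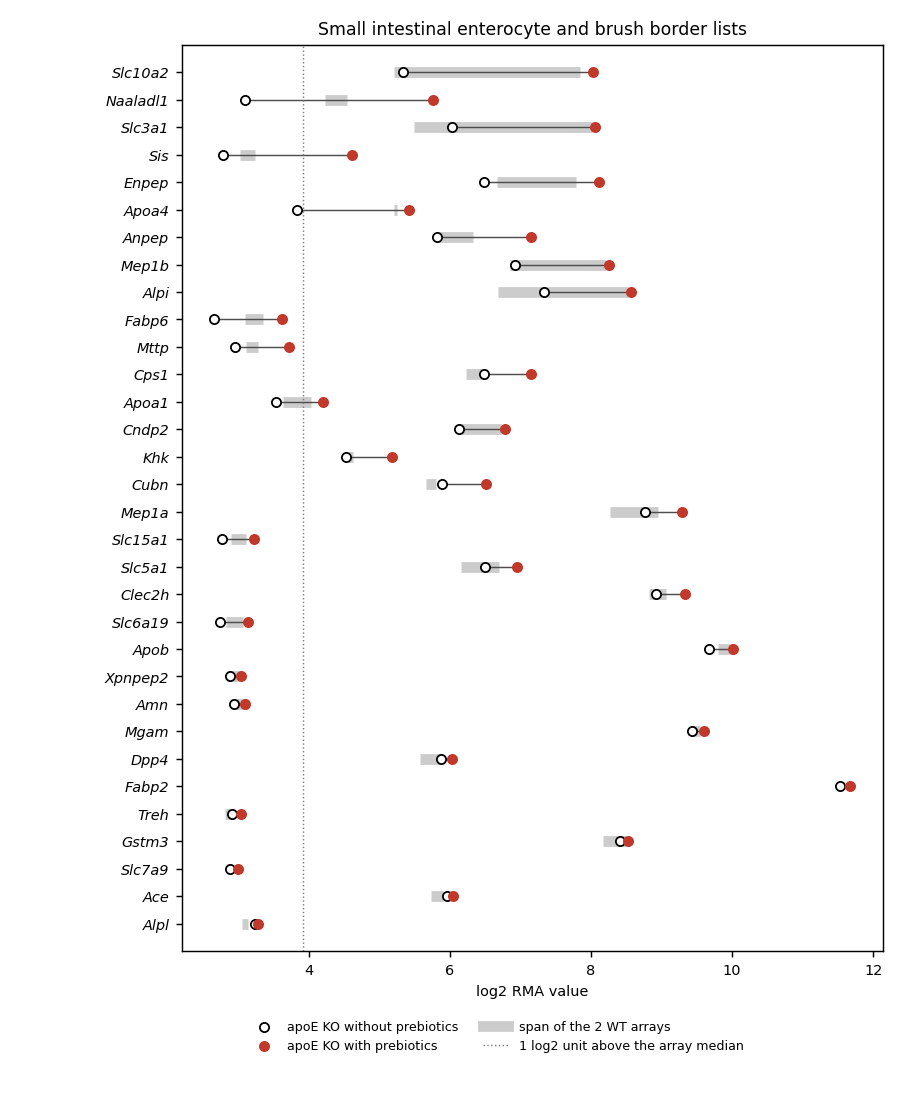
Log2 RMA values (horizontal axis) of the 32 genes of the enterocyte and brush border lists: open circles without prebiotics, red circles with prebiotics, grey bars the span of the 2 WT arrays, dotted line 1 log2 unit above the array median. Each red circle lies to the right of its open circle, and for genes such as Slc10a2, Slc3a1, Mep1b and Alpi the grey bar covers most of the gap.

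Bile acid transport and sensing, a list that includes Slc10a2 and Fabp6, was higher in 12 of 14 compared genes, with a median of 0.38. Of these genes 6 were at least 1.5-fold higher and 1 lower. Fabp6, Abcc2 and Gpbar1 reached the filter only with prebiotics, so they could only count as higher. Of the members left out by the filter, Abcb11 (-0.12) was lower, Nr0b2 (0.14) and Cyp3a11 (0.07) were higher and Fgf15 hardly differed. Slc51a, a subunit of the basolateral bile acid exporter, had 6.05 and 7.17. Slco2a1, a prostaglandin carrier of the organic anion transporter family, had 7.73 and 8.85, above the WT span of 7.97 to 8.51. The nuclear receptors for xenobiotics and bile acids were all somewhat higher: Nr1i2 (PXR) by 0.54, Nr1h4 (FXR) by 0.22 and Vdr by 0.21, and Nr1i3 (CAR) by 0.93 from a value of 3.02, near background. Abcc4, an exporter of bile acids and prostaglandins, ran the other way, with 5.84 and 4.37, and the WT arrays spanned 4.40 to 6.18.

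Genes that assemble lipoproteins were higher, and other members of their list went both ways. Apolipoprotein A-IV (Apoa4) had 3.83 without prebiotics, near background, and 5.43 with them. Here the array without prebiotics stood apart, since the WT arrays lay at 5.21 to 5.25. Apoc2, the cofactor of lipoprotein lipase, had 3.49 and 4.71, Apoa1 3.53 and 4.20 and the lipid transfer protein Mttp 2.95 and 3.73, all near background on at least 1 array, while Apob, well above background, had 9.68 and 10.01. Sar1b, which carries lipoprotein particles out of the endoplasmic reticulum, had 9.49 and 9.56. Lower were the fatty acid receptor Cd36, with 6.28 and 5.35, and the lipoprotein receptor Scarb1, with 5.15 and 4.68. Over the list of lipoprotein and liver X receptor target genes 10 of 17 were higher and the median was 0.01. After cyclic loess 8 were higher and 9 lower. Cholesterol synthesis and uptake genes were higher in 15 of 20, with a median of 0.15. Npc1l1, the intestinal cholesterol importer, had 0.81, from 2.86 to 3.67, both near background.

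The 3 widest gaps among all genes compared were those of alpha-defensins. Defa21 had 3.08 without and 8.18 with prebiotics, Defa22 2.84 and 7.87, and Defa24 2.68 and 6.21. The WT arrays had 2.98 to 3.37, 2.72 to 3.68 and 2.87 to 2.91 for the same genes, so only the KO prebiotic array lay above background. Defa35 had 2.72 and 4.39, and Defa34, Defa40 and Defa39 were higher by 0.73, 0.60 and 0.11 while near background on both arrays. Lysozyme 1 (Lyz1), the Paneth cell lysozyme, had 3.75 and 6.02 against 3.68 to 4.13 in WT.

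Some alpha-defensin genes are close copies of each other, which may limit what a probe set can tell apart. The 150 bases before the RefSeq starts of Defa21 (chr8:21025395-21025544, plus strand) and Defa22 (chr8:21162127-21162276, plus strand, both GRCm38.p6) are shown as an example of such likeness.
Defa21: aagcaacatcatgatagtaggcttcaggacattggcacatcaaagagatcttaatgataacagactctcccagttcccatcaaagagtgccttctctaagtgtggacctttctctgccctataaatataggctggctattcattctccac
Defa22: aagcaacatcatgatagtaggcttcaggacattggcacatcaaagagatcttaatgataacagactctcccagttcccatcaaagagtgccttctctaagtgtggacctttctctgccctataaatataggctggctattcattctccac
All 150 bases were identical. Probe sets read the transcript and not these bases, and no transcript or probe sequences were compared.

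Among the other Paneth cell markers, Ang4, an antimicrobial ribonuclease also made in the large bowel, had 7.42 without and 5.71 with prebiotics, and the WT arrays lay between, at 6.16 to 6.84. Mmp7, the protease that processes defensins, was near background on both arrays, at 3.13 and 3.15, and Itln1 had 2.81 and 3.27. Across the Paneth list 6 of 7 compared members were higher, or 5 of 7 after cyclic loess or centring. Near background on at least 1 array were 6 of the 7, all but Ang4. Defa22, Defa24 and Itln1 reached the filter only with prebiotics, so they could only count as higher, and rescaling does not remove this. The members left out by the filter, Defa26 and Pla2g2a, differed by 0.04 and 0.16. The list's log2 summed level was 7.79 without and 9.52 with prebiotics. Paneth cells belong to the small intestine, and the part of the other small intestinal markers above in this result was not tested.

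The epithelial antimicrobial lectins Reg3b and Reg3g differed from the defensins in where the prebiotic array stood against the WT arrays. Reg3b had 3.18 and 6.51, with WT at 4.17 to 6.64, and Reg3g had 3.63 and 4.86, with WT at 3.71 to 5.53. For both genes the prebiotic array lay within the WT span. The array without prebiotics was near background and below that span, by 0.98 for Reg3b and by only 0.07 for Reg3g. Reg1, Reg3a and Reg3d reached the filter on neither KO array, with differences of -0.01, 0.01 and 0.12. Saa3, an acute phase protein of epithelium and macrophages, had 6.48 and 7.87 against 6.82 to 7.62. The resistin-like defence protein Retnlb was lower, at 9.09 and 8.58, and Reg4 had 11.72 and 11.34. Over 17 defence genes 13 were higher, the median was 0.14, and 4 were 2-fold higher and 1 lower.

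A pair of inducible heat shock genes had far higher values on the prebiotic array, and most other chaperones did not. Hspa1b had 5.77 without and 8.78 with prebiotics, and Hspa1a 5.25 and 7.44, while the WT arrays lay at 5.16 to 6.64 and 4.07 to 5.52. Hspa1a and Hspa1b encode near-identical forms of the inducible HSP70, so a probe set of one may read the other. Their promoters are shown because the genes stand side by side on the chromosome and carry the same heat shock element core. Both regions run from 230 bases to 1 base before the RefSeq start on GRCm38.p6, minus strand, Hspa1a at chr17:34972157-34972386 and Hspa1b at chr17:34959239-34959468, and capitals mark GAANNTTC, searched on both strands.
Hspa1a: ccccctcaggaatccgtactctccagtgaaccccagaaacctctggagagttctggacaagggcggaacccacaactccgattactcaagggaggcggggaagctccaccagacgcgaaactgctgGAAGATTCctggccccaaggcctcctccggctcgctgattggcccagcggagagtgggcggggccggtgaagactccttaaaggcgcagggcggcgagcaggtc
Hspa1b: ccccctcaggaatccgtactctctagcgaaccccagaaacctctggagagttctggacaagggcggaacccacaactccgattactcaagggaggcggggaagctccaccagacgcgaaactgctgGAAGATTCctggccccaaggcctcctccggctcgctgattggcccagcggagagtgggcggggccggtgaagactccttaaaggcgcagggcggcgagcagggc
The regions were identical at 227 of 230 bases, with 1 match each, 104 bases before the start. The letters occur in 6.69% of all 32851 windows and for 6.0% of the 9596 compared genes with a window. Among the 43 2-fold higher genes with a window they occur in 5, namely Apoa4, Hsd17b13, Hspa1a, Hspa1b and Reg3g, and among 11 lower genes in 1, Cbr3.

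The remaining chaperones and their cofactors went both ways. Bag3 had 5.27 and 5.81, Hsph1 7.09 and 7.50, Chordc1 6.23 and 6.61 and Dnajb1 5.59 and 5.94. Hspa4 had 8.47 and 8.41, Stip1 7.87 and 7.75 and Fkbp4 7.73 and 7.65, while Hsf2 had 3.72 and 3.31, near background. Of 22 heat shock chaperones 13 were higher, the median was 0.05, and 2 passed 1.5-fold, the HSP70 pair. Immediate early genes, which respond quickly to stimulation and handling of tissue, were higher in 18 of 26 with a median of 0.18, or 16 of 26 after cyclic loess. Among them Dusp1 had 4.98 and 5.97, Gadd45b 4.55 and 5.17, Fos 6.41 and 6.88 and Jun 7.27 and 7.67. Clock genes were higher in 13 of 16, with a median of 0.26. Per1 had 4.57 and 5.19 and Usp2 5.02 and 5.79.

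Surface colonocytes, the mature absorptive cells of the large bowel, also had higher marker values. In that list 15 of 17 compared genes were higher, with a median of 0.40, all of them above background, and 3 were 1.5-fold higher. Car4, a membrane carbonic anhydrase, had 7.92 and 8.64, the water channel Aqp8 9.02 and 9.69, and the proteolipid Mall 8.51 and 9.24. The chloride-bicarbonate exchanger Slc26a3 had 11.19 and 11.72, above the WT span of 11.06 to 11.68 by a small margin. The list's log2 summed level was 14.74 without and 15.06 with prebiotics. Genes shared by the whole epithelium had smaller gaps: Epcam had 10.10 and 10.33, Vil1 9.61 and 9.85, and a reference list of 16 epithelial and housekeeping genes had 10 higher, or 8 after cyclic loess, a median of 0.04 and 0 past 1.5-fold.

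Transporters for the products of fermentation and digestion were mixed. Slc5a8, the sodium-coupled carrier of butyrate and other short-chain acids, had 6.65 and 8.50, with WT at 6.30 to 8.34. Acss1, a mitochondrial acetyl-CoA synthetase, had 7.35 and 7.98, and the main monocarboxylate carrier Slc16a1 had 10.73 and 11.05. The 2 probe sets of Acss1 differed in sign, at 0.63 and -0.28. The list of short-chain fatty acid genes as a whole had 6 of 10 higher, or 5 of 10 after cyclic loess or centring, and a median of 0.04. Over its 6 members above background on both arrays the median was 0.27. Of the amino acid transporters 15 of 20 were higher, or 13 of 20 after cyclic loess. Slc3a1, the heavy subunit of the cystine and dibasic amino acid transporter, had 6.03 and 8.06 against 5.49 to 8.01 in WT, and Slc6a14 had 8.73 and 9.38. Lower were Slc1a4, with 7.65 and 7.07, and Slc7a5, with 4.12 and 3.72.

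Sugar and ion transport showed single large members and small medians. The calcium-activated chloride channel regulator Clca4b had 2.87 without prebiotics, near background, and 5.49 with them, and the WT arrays lay at 4.82 to 4.95, so the array without was the one apart. Clca4a, far above background, had 9.81 and 10.40. Electrolyte and water transport genes were higher in 20 of 29 with a median of 0.23, and the water channel Aqp1, which marks endothelium, was lower, at 5.21 and 4.45. Sugar transport and fructose genes were higher in 7 of 12, a share close to the 56.0% of all compared genes, with a median of 0.21. Ketohexokinase (Khk), the first enzyme of fructose breakdown, had 4.53 and 5.18, and the glucose importer Slc5a1 had 6.50 and 6.95. All 230 compared solute carriers had a median of 0.14, with 167 higher, 14 at least 1.5-fold higher and 0 lower.

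Cytochrome P450 genes were higher in 19 of 21, or 18 of 21 after cyclic loess, with a median of 0.25. Cyp2d34 had 6.46 and 7.66, Cyp2d26 7.83 and 8.78, Cyp4f14 7.70 and 8.63, and Cyp3a13 8.28 and 9.02. The prebiotic value lay above both WT arrays in 12 of the 21, against 40.4% of all genes. Phase II and Nrf2 target genes went the other way more often, with 23 of 40 lower, a median of -0.07 and 4 at least 1.5-fold lower. Lower were the carbonyl reductase Cbr3, with 7.59 and 6.47, the aldo-keto reductase Akr1b8, with 5.56 and 4.76, the carboxylesterase Ces2a, with 8.59 and 7.85, and the glutathione synthesis enzyme Gclc, with 10.11 and 9.48. The epoxide hydrolase Ephx2 was higher, at 5.74 and 6.61.

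Gut hormone genes were higher in 9 of 12, with a median of 0.29, and 4 of them were 1.5-fold higher. Neurotensin (Nts) had 4.47 and 6.66, with WT at 4.53 to 6.52, and proglucagon (Gcg), the source of GLP-1, had 6.83 and 8.04, with WT at 6.22 to 7.90. Cholecystokinin (Cck) had 2.76 and 4.48, the first near background. Chromogranin A (Chga) had 5.05 and 5.71 and peptide YY (Pyy) 6.08 and 6.45, whereas secretin (Sct) had 5.78 and 5.52 and chromogranin B (Chgb) 5.12 and 4.89. Ffar4, a receptor for long-chain fatty acids found on hormone cells, had 3.64 and 4.81.

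Several other epithelial genes were among the higher ones. Ms4a10 had 5.07 and 7.55 against 3.02 to 4.01 in WT, so both KO arrays exceeded both WT arrays. Plet1, a surface protein of epithelial progenitors, had 3.99 and 6.14, and Mal, a proteolipid of apical transport, 7.01 and 8.97. Tmigd1, an adhesion protein of intestinal and kidney epithelium, had 7.77 and 9.06, and the transcription factor Ovol1 had 4.14 and 5.41. Tubb2a, a beta-tubulin, had 4.06 and 5.37 with WT at 5.20 to 5.40, another gene for which the array without prebiotics stood apart. The growth factor Ereg had 1.11 from its brighter probe set and 0.54 as the mean over its 2 probe sets. The butyrophilin-like genes, which shape intraepithelial T cells, were higher in 4 of 4: Btnl2 from 3.46, near background, to 4.51, Btnl1 by 0.61, from 7.89 to 8.50, Btnl5-ps by 0.52 and Btnl9 by 0.05.

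Goblet cell markers were lower in 11 of 14, with a median of -0.13 and 0 past 1.5-fold. Agr2 had 9.42 and 8.89, Clca1 10.51 and 10.12 and Spink4 10.20 and 9.85. Crypt stem cell markers were higher in 6 of 13, with a median of -0.01, and Lgr5 had 4.33 and 4.55. Cell cycle and DNA replication genes were lower in 31 of 38, also after cyclic loess, with a median of -0.17 and 0 past 1.5-fold. Among them were Tyms, with 5.20 and 4.71, Mcm6, with 6.41 and 5.97, and Mcm4, with 5.16 and 4.73, and the mitotic kinase Aurkb ran the other way, at 5.70 and 6.05.

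In the gut wall, smooth muscle markers were lower in 11 of 14, with a median of -0.15. Synpo2 had 5.98 and 5.31, Myl9 8.97 and 8.59 and Tagln 8.57 and 8.23, while desmin (Des) had 8.02 and 8.38. The array without prebiotics exceeded both WT arrays for 14 of 14 of these genes, against 33.1% of all genes. The prebiotic array did so for 9, against 40.4% of all genes. Endothelial markers were lower in 11 of 16, with a median of -0.19: endoglin (Eng) had 5.91 and 5.31, Kdr 5.39 and 4.83 and Cdh5 6.58 and 6.15. Fibroblast markers were higher in 11 of 16 and split by gene. Col1a1 had 6.39 and 7.48 and Col3a1 6.59 and 7.24, whereas Pdgfra had 8.24 and 7.54 and Col6a1 7.45 and 6.81. For Col6a1 the 2 probe sets differed, at -0.63 and 0.06. Lpl and Fabp4, abundant in fat, were lower, Lpl with 7.06 and 6.03 and Fabp4 with 6.73 and 5.94, and the adipocyte list as a whole had 4 of 9 higher. The part of wall and fat content in the other differences was not tested.

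**Figure D3:**
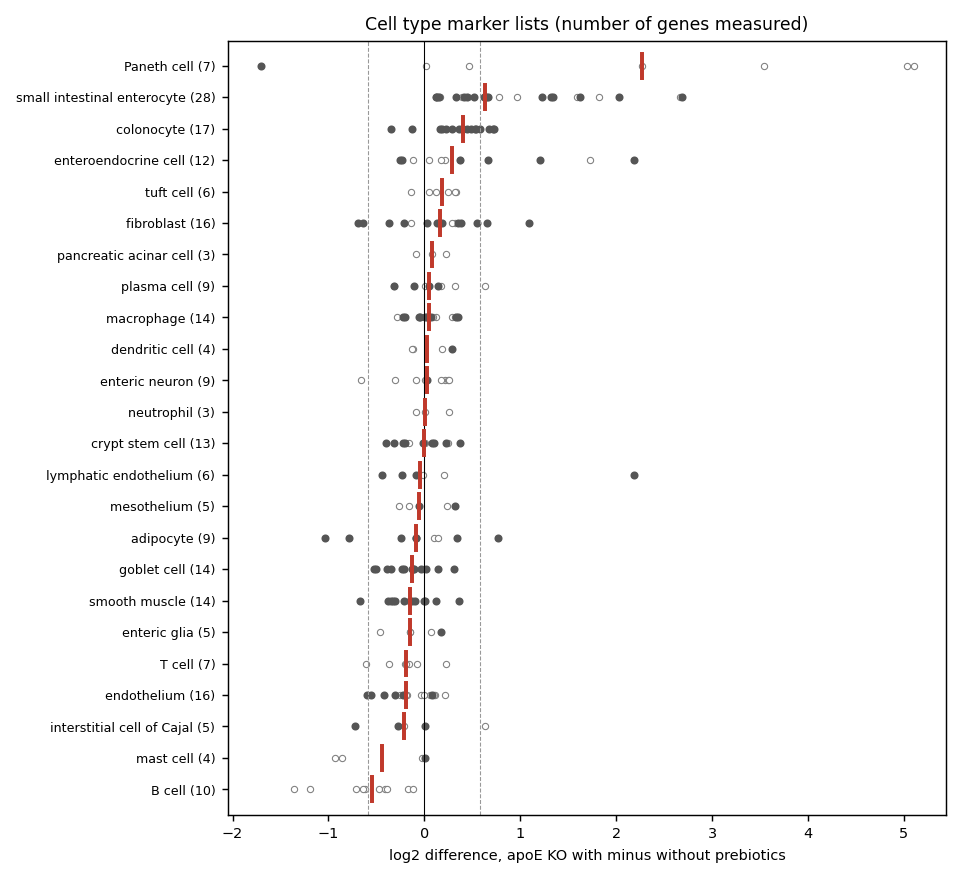
Log2 difference, with minus without prebiotics (horizontal axis), of the compared members of each cell type list with at least 3 of them: filled points above background on both KO arrays, open points near background on at least 1, red bars the list median, dashed lines 1.5-fold. Small intestinal enterocyte and colonocyte points lie mostly right of 0, B cell points all left of 0, and the Paneth list spans -1.71 to 5.10.

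B cell genes were lower on the prebiotic array. All 10 compared B cell markers were lower, under each scaling tried, with a median of -0.54; 5 were at least 1.5-fold lower and 2 at least 2-fold. Cd79a, which signals for the B cell receptor, had 4.52 and 3.16, and its partner chain Cd79b had 3.66 and 2.47. Bank1 had 3.77 and 3.06, Cd37 4.0 and 3.36 and Ms4a1 (CD20) 3.39 and 2.78. All 10 were near background on at least 1 array, so the sizes are poorly determined. Cd79b, Ms4a1, Fcer2a, Cr2 and Fcmr reached the filter only without prebiotics, so they could only count as lower. Rescaling the arrays does not remove this. In 9 of the 10 the prebiotic array was below both WT arrays, against 26.1% of all genes. In 5 of the 10 the array without was as well, against 31.0% of all genes. The list's log2 summed level was 7.0 without and 6.38 with prebiotics. Pax5, Blk, Fcrla and Spib reached the filter on neither array, with differences of -0.20, -0.16, -0.03 and -0.18.

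Some genes of leukocytes at large were lower as well. Ptprc (CD45), the common leukocyte phosphatase, had 5.76 and 4.48, and the WT arrays lay at 5.61 to 5.87. The inhibitory receptor Lilrb4a had 5.57 and 4.57. Cd53, a tetraspanin of leukocytes, had 4.34 and 3.42 and Slfn2 4.22 and 3.40, both near background with prebiotics. The list of MHC class II presentation had 8 of 10 genes lower, with a median of -0.32: H2-Eb1 had 5.51 and 5.0, H2-Aa 6.76 and 6.26 and H2-Ab1 8.54 and 8.05. The protease cathepsin S (Ctss), which works on the same pathway, was higher, at 8.80 and 9.55. Mucosal mast cell proteases were lower as well, Mcpt1 with 4.36 and 3.43 and Mcpt2 with 3.59 and 2.74, whereas Kit had 5.03 and 5.04 and Cpa3 3.34 and 3.32.

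Not all immune lists shared this. Plasma cell markers were higher in 6 of 9, with a median of 0.05, and Jchain, the joining chain of secreted IgA, had 7.86 and 7.75. Macrophage markers were higher in 9 of 14, or 7 of 14 after cyclic loess, and Cd68 had 4.65 and 4.99 and Mertk 7.27 and 7.62. T cell markers were lower in 6 of 7, all near background on both arrays, with Il7r at 3.42 and 2.81. Cd4, Icos, Il7r and Cd7 reached the filter only without prebiotics, so they could only count as lower. Cd3e reached it only with prebiotics. Of the T cell markers left out, Cd3d, Cd2, Cd5 and Gzma were higher and Cd8a, Cd6, Cd28, Zap70 and Gzmb lower. No eosinophil marker reached the filter. Chemokines and their receptors had 9 of 23 higher and 0 past 1.5-fold, with the B cell attractant Cxcl13 at 7.35 and 7.05. Probe sets that name several copies of Ccl21, a chemokine of lymphoid tissue and lymphatic vessels, were all 9 of the several-gene probe sets that were 2-fold lower. The first of them went from 9.59 to 8.33, against 8.66 to 8.85 in WT. Several of the 9 had identical values on every array and all name the same copies, so they are not 9 separate readings of Ccl21. This gene was named after its values were seen.

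Immunoglobulin variable segments, which differ between animals in their use, were lower in 8 of 12, with a median of -0.51 and 3 at least 2-fold lower. These 3 were all kappa segments, above background on both arrays, with 6.02 and 4.92, 9.08 and 8.04, and 8.31 and 7.28. The segments compared ranged from -1.10 to 0.46.

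**Figure D4:**
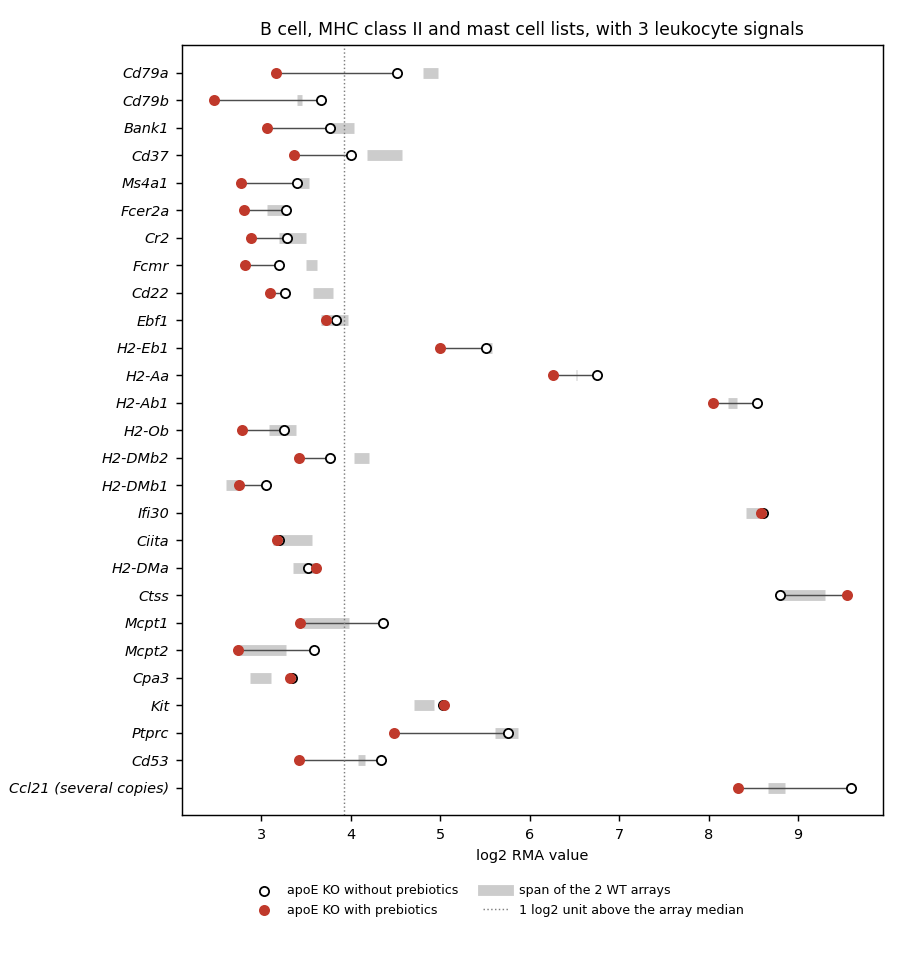
Log2 RMA values (horizontal axis) of the B cell, MHC class II and mast cell lists, of Ptprc and Cd53, and of a probe set for several Ccl21 copies: open circles without prebiotics, red circles with prebiotics, grey bars the span of the 2 WT arrays, dotted line 1 log2 unit above the array median. Every B cell circle with prebiotics lies left of its partner, mostly below the dotted line, and Ctss is the widest gap in the opposite direction.

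Some PPAR alpha targets of fatty acid oxidation had lower values on the prebiotic array. Pdk4, the kinase that shuts glucose carbon out of the mitochondrion, had 6.94 and 6.05, the peroxisomal enzyme Ehhadh 8.42 and 7.57 and the pantetheinase Vnn1 7.07 and 6.21. Acot1 had 3.99 and 3.41, Acot2 7.18 and 6.65, and the acyl-CoA dehydrogenase Acadvl 8.06 and 7.60. Of the 27 compared genes 19 were lower, or 21 after cyclic loess, with a median of -0.12 and 3 at least 1.5-fold lower. The prebiotic array was below both WT arrays for 7 of the 27, a share close to the 26.1% of all compared genes. The gap between the KO arrays was wider than that between the WT arrays in 8 of the 27, against 52.3% of all genes. The WT arrays spanned 5.97 to 7.51 for Pdk4 and 7.41 to 8.80 for Ehhadh, around both KO values. Other targets hardly differed, such as Angptl4 at 3.86 and 3.87, near background, and Slc25a20 at 8.96 and 9.08. Genes of fatty acid synthesis and desaturation were lower in 14 of 22, with a median of -0.07. The NADPH source Me1 had 8.14 and 7.41 and the delta-5 desaturase Fads1 8.22 and 7.86, but Fads3 had 6.46 and 7.27 and Dgat1, which makes triglycerides, 5.97 and 6.78.

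Eicosanoid genes were divided, with 13 of 19 higher and a median of 0.21. Slco2a1 at 1.12 was 2-fold higher, and Abcc4 at -1.47 and Cbr3 at -1.11 were 2-fold lower. Cyclooxygenase 2 (Ptgs2) had 4.37 and 3.81. Over the 7 members that passed a filter at the 75th percentile the median was -0.22, so the list has no settled direction. Nitric oxide and arginine genes, which the study's title makes of interest, were lower in 11 of 16 with a median of -0.08. Endothelial nitric oxide synthase (Nos3) was near background, at 3.04 and 2.84, and Cps1, which feeds citrulline synthesis in the gut, had 6.48 and 7.15.

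Pattern recognition genes were higher in 18 of 23, or 15 of 23 after cyclic loess, with a median of 0.15. Ly96, the partner of the lipopolysaccharide receptor, had 4.46 and 5.26, Il18 7.14 and 7.80 and the flagellin receptor Tlr5 5.21 and 5.74, while Tlr9 had 3.66 and 3.11. Tight junction genes were higher in 11 of 16, with a median of 0.19 and 0 past 1.5-fold, Cldn15 at 7.37 and 7.81. Mucins were higher in 4 of 5, with Muc4 at 5.88 and 6.66. Interferon response genes had a median of 0.06 and 22 of 29 near background on both arrays, with Oas1g at 4.25 and 5.07. Oxidative phosphorylation, with 18 of 42 higher, and the unfolded protein response, with 14 of 28, had medians of -0.0054 and -0.0041 and no gene past 1.5-fold.

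**Figure D5:**
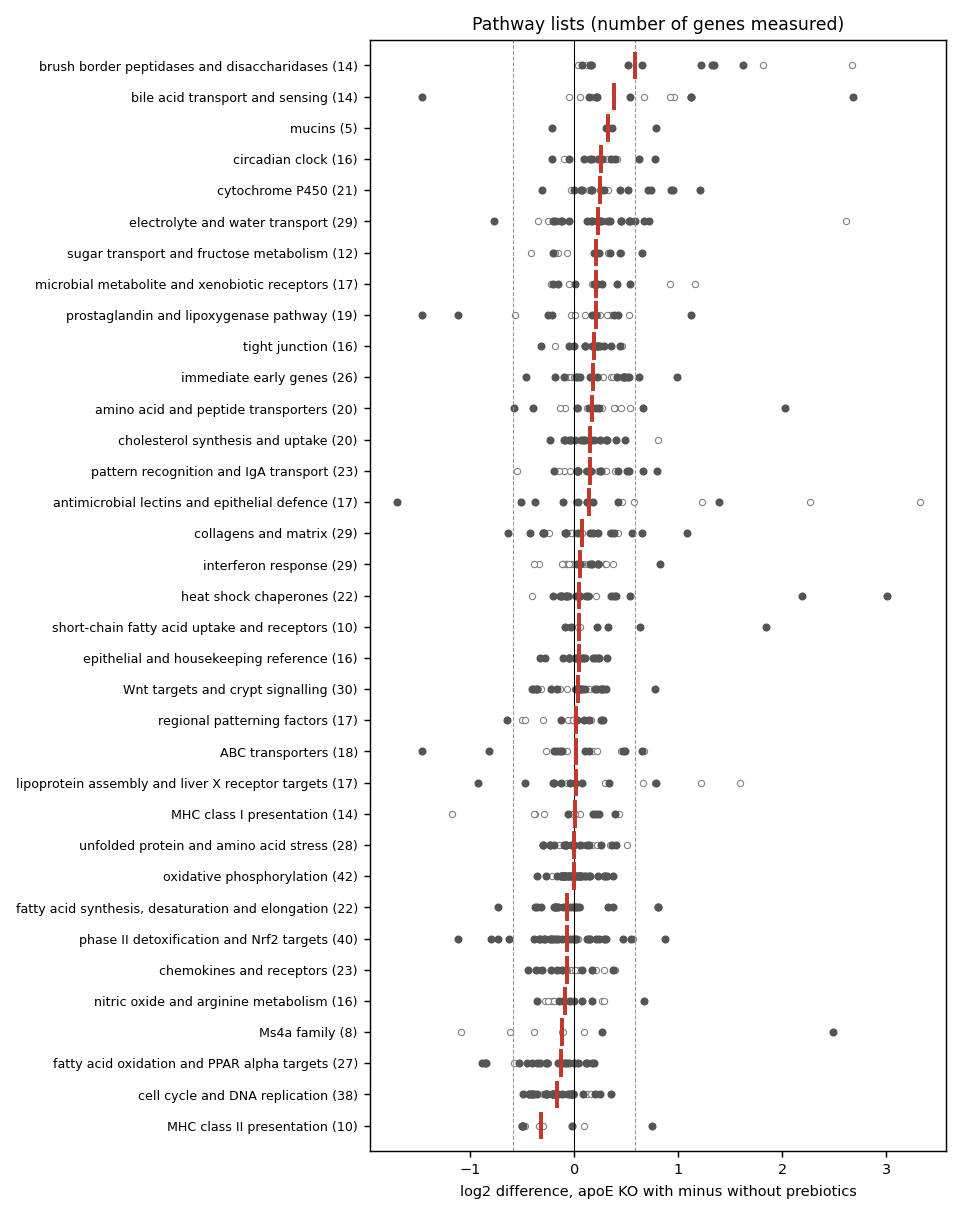
Log2 difference, with minus without prebiotics (horizontal axis), of the compared members of each pathway list: filled points above background on both KO arrays, open points near background on at least 1, red bars the list median, dashed lines 1.5-fold. Brush border enzymes have the highest median, 0.58, and MHC class II genes the lowest, -0.32, while oxidative phosphorylation lies close to 0.

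Among the other 2-fold lower genes, 4 had several probe sets that did not all share the difference. Syne1 had 7.56 and 6.27 on its brightest of 59 probe sets and a mean difference of -0.43 over them. Cped1, with 6.11 and 4.90, H2-Q10, with 4.92 and 3.74, and Lpl had means of -0.58, -0.70 and -0.59. None of the 4 reached 2-fold by that mean. Scgb2b20, a secretoglobin, had 4.43 and 2.95 with WT at 2.79 to 2.82, so the array without prebiotics was the one apart. Ms4a4d had 4.46 and 3.38, and Fgf7, a growth factor from mesenchyme, 4.20 and 3.18. Lower by less than 2-fold were the potassium channel subunit Abcc9, with 7.43 and 6.61, clusterin (Clu), with 5.32 and 4.52, Mfge8, with 6.65 and 5.85, and the spermidine synthase Srm, with 5.46 and 4.60.

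MicroRNA genes, 125 of the 12216 compared, made up 5 of the 58 higher genes and 0 of the 17 lower. At 1.5-fold 13 of the 125 were higher and 4 lower, against 2.63% and 1.15% of all genes. Both shares thus exceeded those of all genes. The microRNAs below were named after their values were seen. Mir761 had 4.03 and 5.71, Mir1195 5.28 and 6.30, Mir467c 3.42 and 4.72, Mir5103 3.52 and 4.67 and Mir665 2.53 and 3.60. Only Mir761 and Mir1195 were above background on both arrays. Mir665 reached the filter only with prebiotics, so it could only count as higher. Mature sequences from RefSeq (GRCm38.p6) are shown for the 4 that had an entry, 5′ to 3′ with the seed, bases 2 to 8, in capitals, to show that no seed was shared.
mmu-miR-761: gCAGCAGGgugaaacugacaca
mmu-miR-1195: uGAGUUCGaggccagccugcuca
mmu-miR-5103: uCAUCCGGgauccccugagg
mmu-miR-665-5p: aGGGGCCUcugccucuauccaggauu
mmu-miR-665-3p: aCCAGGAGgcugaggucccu
The sources used here do not say whether these probe sets read the mature or the precursor form.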

How the data were processed

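The data were 4 Affymetrix arrays, 1 per group, of which the 2 apoE KO arrays were compared. The authors deposited log2 values of 41345 probe sets; per the submitters' processing notes they used Affymetrix Expression Console and RMA, which subtracts background, brings arrays to a common distribution and summarises probes. The log base is that of RMA. A build for the annotation is not given in the sources used here. Depth has no counterpart on arrays, and the number of arrays limits the precision.

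Annotation gave 1 symbol for 23521 probe sets, several for 1814 and none for 16010. For 1082 genes with several probe sets, the brightest by its mean was taken. A gene was compared if it reached the median of the 1-symbol probe sets on at least 1 KO array, which 9964 did not. Differences were with minus without prebiotics, and genes past 2-fold or 1.5-fold were counted with no test. Groups came from titles. For both WT arrays the description contradicts the title, source name and treatment.

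The KO pair, the 26 cell lists and 35 pathway lists were chosen with earlier results of these data known. A gene that did not belong in the lipoprotein list was removed after its values were seen. Named genes were Apoe, the 40 largest differences each way without predicted genes, microRNAs, small nucleolar RNAs, olfactory receptors and immunoglobulin segments, and up to 6 members of each list with the largest differences. Other members were named as reference points or because they lay near background, and were chosen after their values were seen. Sequences came from RefSeq tables of GRCm38.p6. Counting was tested on simulated data. Alternatives were other filters, the mean over probe sets, cyclic loess (limma 3.58.1, R 4.3.3), centring, a floor and 3-fold. Work was done in Python 3.11.15 with pandas 2.3.3 and numpy 2.4.6.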

Additional observations from a re-analysis of the deposited data

Results flagged for a closer look

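Probe sets outside the gene comparison also held signals above those of the control array. Among 896 probe sets that name several genes and passed the filter, 7 passed 2-fold upward in the KO mice given prebiotics. The largest difference was that of the probe set for the acute phase proteins Saa1 and Saa2, which went from 3.95, near background, to 7.44, a log2 difference of 3.49. The WT arrays spanned 4.41 to 7.23. A probe set of Saa2 alone was near background on both KO arrays, at 2.85 without and 2.74 with prebiotics, and did not reach the filter. The difference of the shared probe set therefore cannot be assigned to Saa2. Of the other 6 several-gene probe sets, 4 name alpha-defensins, with differences of 1.62 to 2.87, and the others name Btnl6 and Btnl4 (1.15) and Gadd45a (1.04).

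Among 7423 probe sets without a gene name that passed the filter, 320 were at least 2-fold higher and 203 at least 2-fold lower. The SD of their differences was 0.56, against 0.29 for the probe sets with 1 gene name, so they vary more on both sides. Why they do was not tested.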

How the results depend on the processing

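With the filter raised to 1 log2 unit above the array median on both KO arrays, 35 genes were 2-fold higher and 10 lower, and 199 were 1.5-fold higher and 82 lower. This follows from the smaller number of genes, 6760. A filter at the 75th percentile left 86 genes 1.5-fold lower. At 3-fold, 22 genes were higher and 1 lower. Cyclic loess gave 51 higher and 20 lower at 2-fold, with 51 of the 58 and all 17 kept, and median centring gave 52 and 20. The prostaglandin and lipoxygenase list turned from 0.21 to -0.22 over the 7 members left by the 75th percentile filter. Over its 9 members above background on both KO arrays the median was 0.17. Why these filters differ was not tested. No named gene past 1.5-fold changed sign under the alternatives run. The mean over probe sets moved 13 named genes by more than the SD between the WT arrays, and the floor at the array median moved 2. Cyclic loess shifted the median difference of all genes from 0.04 to -0.01. No paired analysis was possible because each group has 1 array. Values near background limit the size, and often the order, of the differences printed.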
